A study of Homo sapiens with 4 samples.

Results

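Lytic granules are secretory lysosomes that store perforin and granzymes in natural killer cells. On contact with a target cell they are carried to the synapse, docked, primed and fused with the plasma membrane, and loss of several of the proteins involved causes hemophagocytic syndromes in people. Here 10 genes of this route were followed, taken by symbol from the 20323 genes listed in the deposited table: LYST and AP3B1 of granule formation, RAB27A, SYTL2 and SYTL3 of transport and docking, UNC13D of priming, STX11, STXBP2 and VAMP7 of fusion, and LAMP1 of the granule membrane. All 10 were found and all 10 passed the filter on low counts, which left 11810 genes for testing. They were chosen for their function, but with earlier results of these data known. LYST and SYTL2 are also named by the study for these same libraries, so that their direction here is not independent evidence.

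Poly(A)-selected RNA was sequenced from NK-92, an established human natural killer cell line grown in medium with serum and 100 IU/ml of interleukin 2. NK scramble cells (2 libraries) had received a lentivirus with a scrambled short hairpin RNA and NK shADAR1 cells (2 libraries) one with a hairpin against ADAR1, the enzyme that edits adenosine to inosine in double-stranded RNA. Both groups were transduced by spinning with polybrene, no clonal step is described, and the design text calls the 2 libraries of each group independent replicates. The labels number the knockdown libraries 1 and 2. The study names the hairpin of its sequenced cells as shADAR1-2, so the number in the labels was read as the replicate and both libraries as carrying that hairpin.

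The libraries held 37881704 to 39960491 estimated counts, and the 10 genes had 717 to 7564 counts in a library, so that counting error was at most 3.73% of a value and the spread between libraries set the precision. All 15 natural killer markers examined, NCAM1, KLRD1, PRF1 and GZMB among them, were at 1 FPKM or more (fragments scaled by transcript length and library depth) in every library. Of 8 T cell markers, CD8A and CD8B were at 0 and CD28 and THEMIS above 1 FPKM, with summed levels of 46.1 and 58.0 FPKM in the NK scramble against 67.6 and 57.0 FPKM in the NK shADAR1 libraries. Of 6 B cell markers, MS4A1 was at 0 and CD79A, PAX5 and JCHAIN reached 1 FPKM in at least 1 library, and the sums were 5.37 and 5.06 FPKM against 10.2 and 6.66 FPKM. Of the 8 myeloid markers, CD33 reached 1 FPKM in at least 1 library and FCN1 and CPA3 were at 0. The 8 together summed to 1.34 and 1.05 FPKM against 2.14 and 2.14 FPKM. The 8 epithelial, stromal and packaging line markers, of which PDGFRB was at 1 FPKM or more, summed to 68.4 and 53.2 FPKM against 51.9 and 51.6 FPKM. The part of these genes in the results was not tested. ADAR itself had 655 and 682 CPM (counts relative to library size, scaled by TMM) in the NK scramble or control libraries and 575 and 482 CPM in the NK shADAR1 or knockdown libraries, a log2 fold change of -0.34 (95% interval -0.79 to 0.11) that did not pass the test.

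Promoter entries were found for 7 of the 10 genes. One window is shown for each of 4 of them, LYST and STX11 because their groups of libraries did not overlap, in opposite directions, and RAB27A and LAMP1 because they were the most abundant. Each is the 250 bases before an annotated start in RefSeq (GRCh38.p14), read 5′ to 3′ on the strand of the gene. Capitals mark matches, on either strand, to the E-box CACGTG of the TFEB family, the ETS letters CCGGAAG, the RUNX letters TGTGGT or the interferon-response letters GAAANNGAA. LYST is shown at chr1:235883714-235883963 (minus strand), RAB27A at chr15:55319124-55319373 (minus strand), STX11 at chr6:144150267-144150516 (plus strand) and LAMP1 at chr13:113296989-113297238 (plus strand).
LYST: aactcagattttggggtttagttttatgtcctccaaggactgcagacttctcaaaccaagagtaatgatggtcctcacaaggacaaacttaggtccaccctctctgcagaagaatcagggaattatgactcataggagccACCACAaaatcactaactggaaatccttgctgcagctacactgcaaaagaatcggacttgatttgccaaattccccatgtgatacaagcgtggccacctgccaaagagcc
RAB27A: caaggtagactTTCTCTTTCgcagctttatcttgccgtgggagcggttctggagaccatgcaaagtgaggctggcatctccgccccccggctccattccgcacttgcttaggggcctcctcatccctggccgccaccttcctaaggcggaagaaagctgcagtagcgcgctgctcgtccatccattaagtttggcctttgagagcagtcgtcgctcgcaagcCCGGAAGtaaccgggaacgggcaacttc
STX11: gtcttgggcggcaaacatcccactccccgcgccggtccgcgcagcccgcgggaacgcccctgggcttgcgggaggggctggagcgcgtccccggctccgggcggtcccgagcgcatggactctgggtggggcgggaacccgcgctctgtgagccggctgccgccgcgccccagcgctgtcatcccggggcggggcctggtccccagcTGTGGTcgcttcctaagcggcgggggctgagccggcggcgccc
LAMP1: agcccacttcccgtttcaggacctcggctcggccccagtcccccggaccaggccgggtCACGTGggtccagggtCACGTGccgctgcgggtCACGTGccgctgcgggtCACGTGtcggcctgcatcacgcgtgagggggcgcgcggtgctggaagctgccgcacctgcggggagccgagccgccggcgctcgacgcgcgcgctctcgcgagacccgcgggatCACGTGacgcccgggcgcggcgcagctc

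The LAMP1 promoter held CACGTG at 5 places, 192, 176, 159, 142 and 28 bases before the start, and the last of them lies inside TCACGTGA, the core of the CLEAR element of lysosomal genes. Among 35116 promoter windows of this length, 6.34% held CACGTG and 0.854% held TCACGTGA. STXBP2 had CACGTG once, 35 bases before one of its starts, and CCGGAAG 113 bases before another. The RUNX letters also stood 182 bases before a start of SYTL3 and 201 bases before that of VAMP7, and 208 and 191 bases before further starts of RAB27A, while a further start of LYST had none of the 4. Of the 4 kinds of letters, the LYST window held those of RUNX, 110 bases before the start, and the STX11 window the same at 43 bases, and 11.0% of all windows hold them. The first RAB27A window held CCGGAAG at 28 bases and GAAANNGAA at 239 bases before the start, letters found in 8.52% and 6.88% of windows. These are matches of letters only. SYTL2, AP3B1 and UNC13D had no entry.

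In NK shADAR1 cells, LYST and SYTL2 were about 1.6 to 1.7 times their level in NK scramble cells, and the next largest difference, that of AP3B1, was 1.25-fold. Neither difference passed the test. With edgeR's quasi-likelihood test, calling genes at an adjusted p under 0.05 with at least 1.5-fold change, 0 of the 10 genes were called, as were 0% of all 11810 tested genes, and the smallest adjusted p of any gene was 1.00. DESeq2 also called 0 genes. At an unadjusted p under 0.05 in edgeR, 2 of the 10 genes passed, both higher, against 2.48% of all tested genes (1.70% higher and 0.779% lower). LYST and SYTL2, both named by the study for these same libraries, were these 2, and both were also at least 1.5-fold higher. Of all tested genes, 1.26% passed both limits in that direction. In DESeq2 the same 2 genes had an unadjusted p under 0.05, against 1.85% of 15605 genes. The median log2 fold change of the 10 genes was 0.089, against 2.76e-05 for all tested genes, with 8 genes higher and 2 lower. In bulk RNA, a change in every cell and a change in the share of cells that express a gene cannot be told apart.

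**Figure D1:**
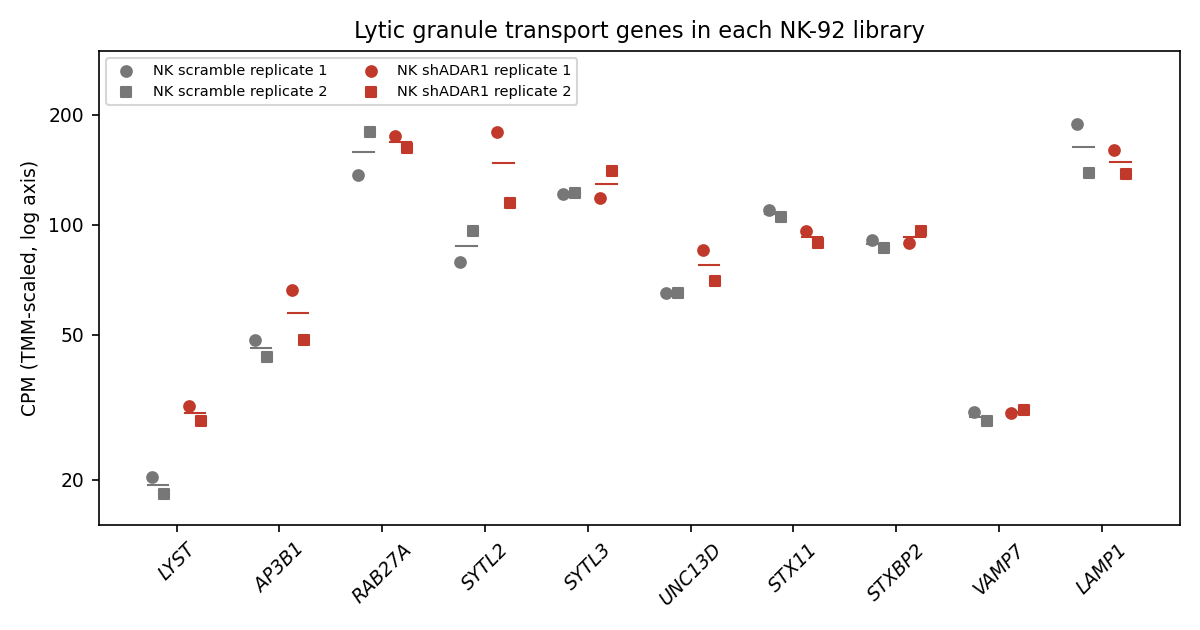
TMM-scaled CPM (log axis) of the 10 genes in each library. Grey symbols are NK scramble and red symbols NK shADAR1 libraries, circles are replicate 1 and squares replicate 2, and short lines are group means. Both red symbols lie above both grey ones for LYST, SYTL2, UNC13D and, barely, AP3B1, and below them for STX11.

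LYST encodes a very large BEACH domain protein that controls the size and maturation of secretory lysosomes and is mutated in Chediak-Higashi syndrome, in which lytic granules are giant and poorly released. The gene spans bases 235661041 to 235883640 of chromosome 1, minus strand (GRCh38, GENCODE release 29). Beside SYTL2 on chromosome 11, the other genes lie on chromosomes 5 (AP3B1), 15 (RAB27A), 6 (SYTL3 and STX11), 17 (UNC13D), 19 (STXBP2), 13 (LAMP1) and X (VAMP7, in a pseudoautosomal region). LYST had 20.4 and 18.2 CPM in control replicates 1 and 2, and 31.9 and 28.97 CPM in knockdown replicates 1 and 2. Both knockdown libraries were therefore above both controls, and the gap between the groups was wider than the spread within either. The group means were 19.3 ± 1.49 and 30.4 ± 2.08 CPM (SD, n = 2 per group). The log2 fold change was 0.66, its standard error 0.20 and its 95% interval 0.20 to 1.11 (edgeR, unadjusted p = 0.00882, adjusted p = 1.00). With any 1 library left out the log2 fold change lay between 0.57 and 0.74, so no single library carried it, although the unadjusted p was 0.0561 without NK scramble replicate 2.

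AP3B1 encodes the large beta subunit of the AP-3 adaptor, which sorts cargo to lysosome-related organelles and is lost in Hermansky-Pudlak syndrome type 2. It had 48.3 and 43.4 CPM in the control and 66.3 and 48.3 CPM in the knockdown libraries. Only NK shADAR1 replicate 1 stood apart, since replicate 2 had practically the value of NK scramble replicate 1. By FPKM the groups overlapped, with 12.1 FPKM in NK scramble replicate 1 and 11.7 FPKM in NK shADAR1 replicate 2. Its log2 fold change was 0.32 (95% interval -0.16 to 0.81, edgeR, unadjusted p = 0.169), and it was 0.077 without NK shADAR1 replicate 1.

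Among the docking genes, SYTL2 differed most. Its product, synaptotagmin-like protein 2, binds GTP-loaded RAB27A through its N-terminal domain and phospholipids of the plasma membrane through its C2 domains, and so tethers granules. The gene spans bases 85694224 to 85811159 of chromosome 11, also on the minus strand. SYTL2 had 79.0 and 95.9 CPM in the control and 180.2 and 114 CPM in the knockdown libraries. Both knockdown libraries were above both controls, but unevenly. The group means were 87.5 ± 11.96 and 147 ± 46.5 CPM (SD, n = 2 per group). That is a log2 fold change of 0.75 (standard error 0.25, 95% interval 0.21 to 1.30, edgeR, unadjusted p = 0.0118, adjusted p = 1.00). Without NK shADAR1 replicate 1 the log2 fold change was 0.39 (edgeR, unadjusted p = 0.161), and without replicate 2 it was 1.04.

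RAB27A, the GTPase that brings these effectors to the granule and is mutated in Griscelli syndrome type 2, had 137 and 179.6 CPM in the control and 175 and 162 CPM in the knockdown libraries. The groups overlapped, and the controls were further apart than the knockdown libraries. Its log2 fold change was 0.091 (95% interval -0.37 to 0.55), and it turned to -0.096 without NK scramble replicate 1. SYTL3, a shorter relative of SYTL2 that also binds RAB27A, had 122 and 123 CPM in the control and 119 and 141 CPM in the knockdown libraries. These groups overlapped as well, with a log2 fold change of 0.087 (95% interval -0.35 to 0.52) that was -0.044 without NK shADAR1 replicate 2.

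UNC13D encodes Munc13-4, which primes docked granules for fusion and is mutated in familial hemophagocytic lymphohistiocytosis type 3. It had 65.0 and 64.9 CPM in the control and 85.2 and 70.3 CPM in the knockdown libraries. The controls were almost equal and both knockdown libraries were above them, replicate 1 by more. The log2 fold change was 0.26 (95% interval -0.19 to 0.71, edgeR, unadjusted p = 0.225), and 0.11 without NK shADAR1 replicate 1.

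STX11, a syntaxin of the plasma membrane mutated in the type 4 form of the disease, was the only one of the 10 genes with both knockdown libraries below both controls. It had 109.8 and 105 CPM in the control and 95.9 and 89.0 CPM in the knockdown libraries. The log2 fold change was -0.21 with a 95% interval of -0.64 to 0.21 (edgeR, unadjusted p = 0.289), and it stayed between -0.27 and -0.16 with any 1 library left out. STXBP2, or Munc18-2, the partner that stabilizes STX11 and is mutated in the type 5 form, had 90.7 and 86.3 CPM in the control and 89.1 and 96.0 CPM in the knockdown libraries. Its groups overlapped, with a log2 fold change of 0.065 (95% interval -0.36 to 0.49).

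VAMP7, a vesicle SNARE of late endosomes and lysosomes, had the smallest log2 fold change of the 10, with 30.6 and 28.9 CPM in the control and 30.4 and 31.1 CPM in the knockdown libraries. Its log2 fold change was 0.046, with an interval of -0.39 to 0.48. LAMP1, or CD107a, is the lysosomal membrane protein whose appearance at the cell surface is used to measure degranulation. It had 189 and 138 CPM in the control and 160.0 and 138 CPM in the knockdown libraries. Here NK scramble replicate 1 was the highest of the 4 libraries, and the log2 fold change of -0.14 (95% interval -0.62 to 0.34) became 0.10 without it.

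For the 8 genes other than LYST and SYTL2, every 95% interval included 0, and the widest upper bound, that of AP3B1, was 0.81 on the log2 scale. With 2 libraries per group, an interval that includes 0 does not show that a gene was unaltered. Both knockdown libraries lay above both controls for 4 of the 10 genes (LYST, AP3B1, SYTL2 and UNC13D), where 13.3% of all tested genes did so, and below them for 1 gene, where 12.6% did so. LYST and SYTL2 are named by the study for these same libraries, so their part in this count is not independent evidence. With DESeq2's size factors AP3B1 no longer counted among the 4. NK shADAR1 replicate 1 was the highest library for the same 4 genes, and for 29.2% of all tested genes.

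**Figure D2:**
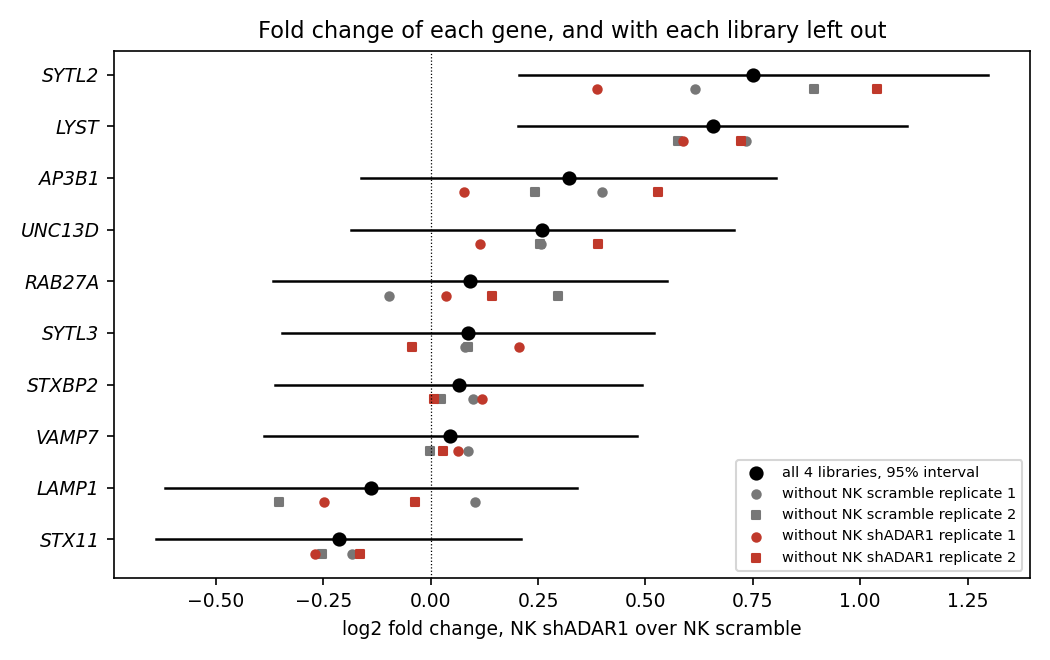
Log2 fold change of NK shADAR1 over NK scramble for each gene, with black points and bars for the fit to all 4 libraries and its 95% interval, and small symbols for the fit with the named library left out. The bars of SYTL2 and LYST lie above 0, from 0.21 and 0.20 upwards, and the small symbols of SYTL2 are spread from 0.39 to 1.04 while those of LYST stay between 0.57 and 0.74.

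Long transcripts were higher in NK shADAR1 replicate 1 as a class. The length that the deposited counts and FPKM imply was 13468 bases for LYST, longer than 99.7% of tested genes, and 3989 bases for SYTL2. For the 155 tested genes over 10000 bases, log2 ratios of CPM to the mean of NK scramble were taken, with a small constant added. Their median was 0.26 in NK shADAR1 replicate 1 and 0.0019 in replicate 2. For LYST these ratios were 0.72 and 0.58, both above the medians of the class. Its fitted log2 fold change exceeded the median of its length class, 0.12, by 0.54 and was above that of 91.0% of the class. When length was regressed out of each library, the log2 fold change was 0.50 for LYST (edgeR, unadjusted p = 0.0320) and 0.69 for SYTL2 (unadjusted p = 0.0106), and that of STX11 was -0.29.

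Levels were compared between genes by FPKM. RAB27A was the most abundant of the 10, with 70.9 to 99.3 FPKM over the 4 libraries (mean 83.3), and no other gene reached its lowest value, although LAMP1 came to 70.8 FPKM. LAMP1, STXBP2 and SYTL3 followed with means of 58.0, 50.2 and 47.2 FPKM, and the range of each overlapped with that of the next gene. SYTL2 (29.5 FPKM) and UNC13D (24.1 FPKM) also overlapped, and UNC13D stayed above STX11. STX11, AP3B1 and VAMP7 had 18.2, 13.0 and 12.3 FPKM, again with overlap between neighbors. LYST was lowest, at 1.33 to 2.46 FPKM, below every value of the other 9 genes. Among 15616 genes above 0, RAB27A stood at percentile 93.2 and LYST at percentile 40.3.

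RAB27A and UNC13D were by far the most abundant members of their families. UNC13D made up 99.7% to 99.9% of the summed FPKM of the 4 UNC13 genes, and RAB27A 98.4% to 99.0% of RAB27A and RAB27B together. Of the 5 synaptotagmin-like genes, SYTL2 and SYTL3 were expressed, SYTL1 had at most 6 counts in a library and SYTL4 and SYTL5 had 0. SYTL2 was 30.3% and 34.5% of the family in the controls against 50.2% and 35.1% after knockdown. NK shADAR1 replicate 1 was thus the only library in which SYTL2 matched SYTL3, and replicate 2 was close to NK scramble replicate 2.

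AP3B1 was the least abundant of the 6 expressed AP-3 subunits in all 4 libraries (AP3B2 was near 0). AP3D1, the delta subunit that joins AP3B1 in the core of the complex, had 316 and 256 CPM in the control and 295 and 265 CPM in the knockdown libraries (log2 fold change -0.032). AP3S1, the small sigma subunit, had 46.5 and 50.2 CPM in the control and 35.03 and 55.1 CPM in the knockdown libraries. In NK shADAR1 replicate 1, where AP3B1 was highest, AP3S1 was lowest. The medium subunit AP3M1 was, like AP3B1, highest in that library, with a log2 fold change of 0.093 and overlapping groups.

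**Figure D3:**
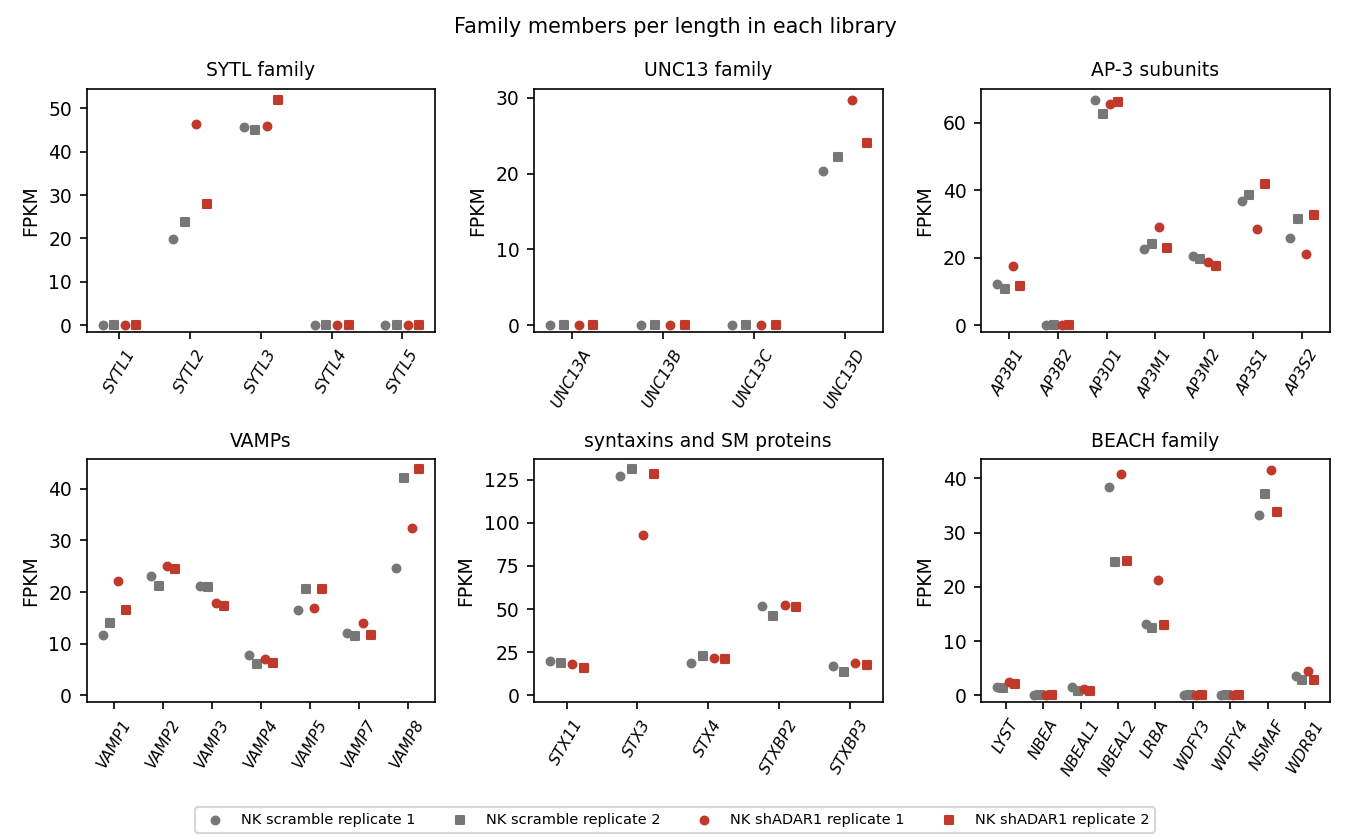
Deposited FPKM of 6 gene families in each library, with grey for NK scramble, red for NK shADAR1, circles for replicate 1 and squares for replicate 2. SYTL2 and SYTL3 carry the SYTL family and UNC13D the UNC13 family, and the circle of NK shADAR1 replicate 1 is the highest for SYTL2, UNC13D, AP3B1 and LRBA and the lowest for AP3S1 and STX3.

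The other genes of granule traffic were taken from 10 lists with 184 genes, of which 153 were tested. Of these, 4 had an unadjusted p under 0.05 in edgeR, all higher in NK shADAR1 cells, a share near the 2.48% of all tested genes, and 0 passed after adjustment. The median log2 fold change was 0.0011, with 77 genes higher and 76 lower, so these lists were centered where all genes were. Both knockdown libraries lay above both controls for 23 of the 153 genes and below them for 26, where all tested genes gave 13.3% and 12.6%.

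Of the 4 genes, RAB27B, the second RAB27 gene, had 7.01 and 6.11 CPM in the control and 11.3 and 8.65 CPM in the knockdown libraries, a log2 fold change of 0.60 (95% interval 0.011 to 1.19, edgeR, unadjusted p = 0.0466). It was 0.40 without NK shADAR1 replicate 1, and the unadjusted p was 0.0559 in DESeq2 and 0.0772 in edgeR with length regressed out. LRBA, the BEACH domain relative of LYST that protects CTLA-4 from lysosomal breakdown, had 76.8 and 71.3 CPM in the control and 135.9 and 85.0 CPM in the knockdown libraries, a log2 fold change of 0.58 that was 0.20 without NK shADAR1 replicate 1. VAMP1, a vesicle SNARE, had 27.1 and 30.5 CPM in the control and 46.2 and 35.6 CPM in the knockdown libraries (log2 fold change 0.50, and 0.30 without NK shADAR1 replicate 1). VPS8, a subunit of the CORVET tether of early endosomes, had 45.4 and 34.3 CPM against 69.0 and 49.9 CPM (log2 fold change 0.58, and 0.33 without that library). With length regressed out, the unadjusted p in edgeR was 0.0510 for LRBA, 0.0327 for VAMP1 and 0.0359 for VPS8. In all 4 genes both knockdown libraries were above both controls, as in 13.3% of all tested genes. NK shADAR1 replicate 1 was the highest library in each, as in 29.2% of all tested genes. The 4 genes were picked for an unadjusted p under 0.05 in edgeR on these same libraries. The separation of their groups, with a knockdown library the highest, follows largely from that choice and adds no evidence. The 29.2% is over unselected genes and is not a like reference for these 4.

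The SNARE list, with 39 of 44 genes tested, had a median log2 fold change of 0.0078, with 21 genes higher and 18 lower. SNAP23, the SNARE partner of STX11, had a log2 fold change of 0.10 (95% interval -0.39 to 0.59) with overlapping groups. The vesicle SNAREs VAMP2 and VAMP8 had log2 fold changes of 0.17 and 0.19. STX3, the most abundant of the syntaxins and partners examined at a mean of 119.9 FPKM, had 352 and 402 CPM in the control and 236 and 396 CPM in the knockdown libraries, so that NK shADAR1 replicate 1 alone was low. STX4 had a log2 fold change of -0.010, and the SM protein STXBP3 had 0.24, each with an interval that included 0. Of the BEACH relatives of LYST, NBEAL2 (log2 fold change 0.16) and WDFY4 (-0.51, at about 1 CPM or less) had intervals that included 0. Of the granule membrane proteins beside LAMP1, LAMP2 had a log2 fold change of -0.0065 and CD63 of 0.18, and the 18 tested genes of that list had a median of -0.0052.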

How the data were processed

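The authors deposited, for each of 20323 genes, estimated counts, which are not scaled for depth, and FPKM values, in 4 NK-92 libraries. Libraries were made with oligo(dT) beads and a NEBNext Ultra kit and sequenced on an Illumina NovaSeq. The submitters' processing notes name fastp 0.18.0, and the aligner, counting program, annotation and genome build are not given in the sources used here. Symbols were found for 20301 identifiers.

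Counts were rounded, filtered with filterByExpr (minimum count 10), scaled by TMM and tested in R 4.3.3 with the quasi-likelihood test of edgeR 4.0.16 on 2 against 2 libraries without covariates, with Benjamini-Hochberg adjustment over 11810 genes. The standard error is the log2 fold change divided by the square root of F. An exact permutation test could not go below p = 0.333. FPKM values served to compare genes and to derive the implied transcript length. As alternatives served DESeq2 1.42.0, scaling by RLE or by the upper quartile, 2 filters on low counts, the replicate block, each library left out, length regressed out (natural spline, 4 degrees of freedom) and limma 3.58.1 on log2(FPKM + 1) and log2(FPKM + 0.1). The scripts were tested on simulated counts. The 10 genes, the lists and the alternatives were chosen with earlier results of these data known. From the other lists, genes with an unadjusted p under 0.05 and close relatives fixed beforehand are named. In GENCODE release 29, STXBP2 shares 989 exon bases with the same-strand gene AC008763.2. RAB27A shares 183 with PIGBOS1 on the same strand and 154 with PIGB on the opposite strand. The counts of STXBP2 and RAB27A are uncertain to that extent, for PIGB because strand-specific counting is not stated. The values of 1 gene of the other lists are not reported here.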

Additional observations from a re-analysis of the deposited data

How the results depend on the processing

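With each library left out in turn, the number of the 10 genes at an unadjusted p under 0.05 was 1 to 2, that of genes with separate groups 6 to 9 (a lone library separates more easily), and the median log2 fold change of the 10 genes 0.085 to 0.16. The gene lost was LYST without NK scramble replicate 2 and SYTL2 without NK shADAR1 replicate 1. The direction turned for RAB27A (-0.096 to 0.30), LAMP1 (-0.35 to 0.10), VAMP7 (-0.0012 to 0.086) and SYTL3 (-0.044 to 0.21). With limma, the median was 0.15 on log2(FPKM + 1) and 0.15 on log2(FPKM + 0.1). On the second scale limma gave 1 of the 10 genes an unadjusted p under 0.05, against 285 of 11810 genes, and LYST had 0.0654. The cause was not tested. Where 1 library was left, it was assumed to vary like the other group, and among all genes 47 were called without NK scramble replicate 1, 2 without its replicate 2, 16 without NK shADAR1 replicate 1 and 1 without its replicate 2. The medians of the other lists moved with single libraries. That of the Rab27 effectors, UNC13 and synaptotagmin relatives (0.13) was 0.31 without NK scramble replicate 1, 0.33 without its replicate 2, 0.41 without NK shADAR1 replicate 2 and 0.37 at a mean of at least 50 counts. That of the BEACH relatives (0.065) was 0.37 without NK scramble replicate 1, and that of the lysosomal membrane genes (-0.0052) was -0.18 without NK shADAR1 replicate 1. In all, 24 values of these medians under the alternatives moved by more than the spread between replicates and 106 did not. With the replicate block, edgeR called 13 of all genes, against 0 without it, and 0 of the 10 genes (adjusted p = 0.263 for LYST and 0.284 for SYTL2). An unadjusted p under 0.05 was found for 2 of the 10, and for 681 of all 11810 tested genes (293 without the block). Deviations of same-numbered libraries correlated at 0.308 over genes, and nothing in the labels says that the numbers pair the libraries. The count of 0 called genes among the 10 was the same under all 13 alternatives, as was the direction of ADAR (-0.47 to -0.22 with 1 library left out). Counting error was at most 3.73% for these genes.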

Other observations

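Of the 18 tested genes in the list of granule Rabs, 13 were lower in NK shADAR1 cells, with a median log2 fold change of -0.15 (-0.090 without NK scramble replicate 1 and -0.074 with limma on log2(FPKM + 1)), and both knockdown libraries lay below both controls for 6 of them (12.6% of all tested genes) and above for 3 (13.3%). None had an unadjusted p under 0.05 in edgeR's quasi-likelihood test and 0 passed after adjustment, in edgeR or in DESeq2. Among the 18 tested lysosomal membrane genes, 6 were separated downwards and 2 upwards, where all tested genes gave 12.6% and 13.3%. Their median log2 fold change was -0.0052, with 8 genes higher and 10 lower. Over all 153 tested genes of the lists, 26 were separated downwards and 23 upwards.

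CPM from the deposited counts and deposited FPKM did not rank the libraries alike for 6 of the 10 genes, AP3B1, RAB27A, SYTL3, UNC13D, STXBP2 and VAMP7. RAB27A was highest in NK scramble replicate 2 by CPM (179.6) and in NK shADAR1 replicate 1 by FPKM (99.3). The length implied by counts and FPKM was 1947, 2078, 1828 and 2005 bases for RAB27A in NK scramble replicates 1 and 2 and NK shADAR1 replicates 1 and 2. STXBP2 and VAMP7 were highest in NK shADAR1 replicate 2 by CPM (96.0 and 31.1) and in replicate 1 by FPKM (52.2 and 13.98). For UNC13D the implied length was 3219, 2880, 2981 and 2836 bases, and for VAMP7 2560, 2484, 2257 and 2586 bases. For LYST it varied by 4 bases at most and for LAMP1 it was 2701 bases throughout. The groups overlapped in implied length for RAB27A, UNC13D and VAMP7. The implied length of STX11 was 5504 bases in each library, while its 1 transcript in GENCODE release 29 has 1926 bases, so the deposited values rest on another annotation of this gene.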
